A study of Mus musculus with 16 samples.

Results

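Fatty acid oxidation and ketone body formation were followed through 39 mouse genes: regulators of the pathway, enzymes of its mitochondrial and peroxisomal branches, acyl-CoA thioesterases, 1 ketone body enzyme and genes known as targets of PPAR alpha. The members were given as a list of symbols and matched to the Ensembl identifiers of the deposited tables, where they are 39 of 78317 listed genes. RNA was measured by poly(A) RNA sequencing of whole liver from wild-type mice of the inbred strain C57BL/6J. The 4 groups were females on a normal diet, females on a high fat diet, males on a normal diet and males on a high fat diet, with 4 libraries in each. The normal diet took 4.5% of its calories from fat and the high fat diet 60%. The diets came from different makers and can differ in more than fat content. Mice arrived at 6 weeks of age and ate their diet for 10 weeks. The question in the series' own description is what the high fat diet does in each sex.

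In hepatocytes, fatty acids are activated to acyl-CoA, pass into mitochondria through the carnitine shuttle and are shortened there in repeated cycles of oxidation, hydration, a second oxidation and thiolysis. Peroxisomes shorten very long and branched chains by a parallel route, and unsaturated chains need auxiliary isomerases and reductases before they can enter the cycle. The acetyl-CoA that results can be turned into ketone bodies, which the liver exports, and the nuclear receptor PPAR alpha raises the transcription of many of these genes during fasting.

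Total expected counts per library ran from 22228115 to 41420589, and all 39 members passed the filter on low counts, within 14781 tested genes. The labels number the replicates but do not say that each is a separate animal, so p-values measure the spread between these libraries, part of which may be technical. Male high fat diet replicates 2 and 3 were close to each other: their chi-square statistic per gene was 4.07, while the other pairs of that group ran from 55.6 to 308. Sampling noise alone gives about 1, so they were counted as 2 libraries and not as 1 library under different names. Whether they come from 1 animal is not given by the labels and cannot be told from this value. Results that rest on males fed the high fat diet are given with and without them where the call differs. A list of 6 hepatocyte markers summed to between 52270 and 93390 TPM (a relative transcript level that takes account of transcript length) in every library, so the defining genes of hepatocytes were present throughout. In whole tissue, fewer cells of a type and less RNA per cell cannot be told apart.

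Most members were abundant. On the TPM scale the 33 highest members lay at or above percentile 91.9 of the tested genes in their mean level over the 16 libraries. The order was led by Acaa2, the mitochondrial thiolase that splits off acetyl-CoA, with a mean level of 730.5 TPM and a range of 580.2 to 899.5. Etfb followed at 540.1 TPM, Acaa1b at 474.5, Etfa at 473.2 and Acsl1 at 451.6 TPM. The lowest levels were those of the coactivator Ppargc1a, at 2.33 TPM, the mitochondrial thioesterase Acot2, at 6.45 TPM, and the carnitine acetyltransferase Crat, at 20.2 TPM. For each of the 38 pairs of neighbours in this order, the ranges over the 16 libraries overlapped, so the order of neighbours is not resolved. Acot3 had the widest range for its mean level, from 2.13 to 227.5 TPM.

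**Figure D1:**
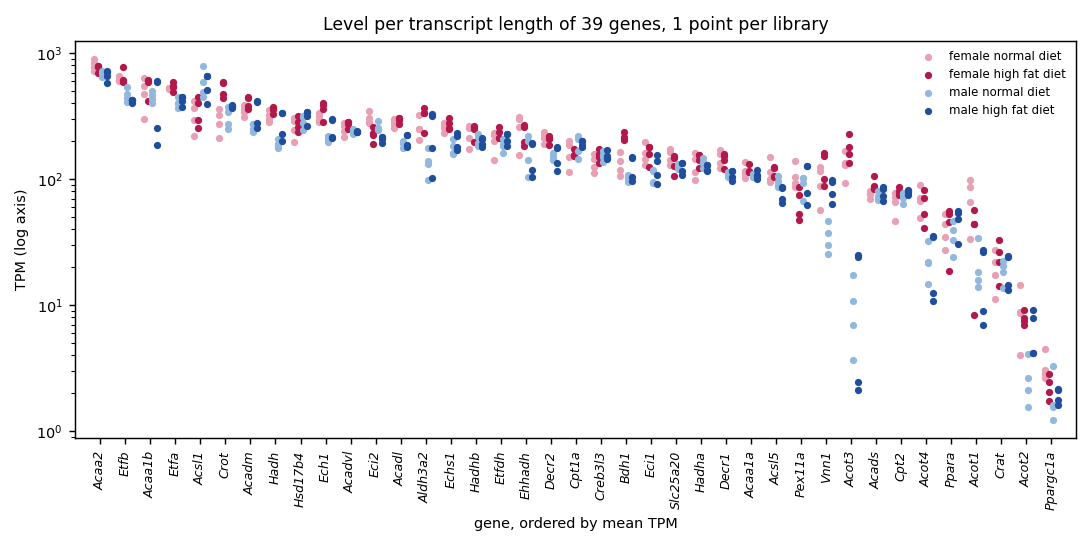
Level of each of the 39 genes in TPM on a log axis, ordered by the mean over 16 libraries, with 1 point per library coloured by group. The genes run from Acaa2 (mean 730.5 TPM) down to Ppargc1a (2.33 TPM), and the male points of Acot3 fall as low as 2.13 TPM while its female points lie at 92.79 TPM or above.

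Summed over the 39 members, RNA of the pathway took 0.846% ± 0.109 (SD, n = 4) of TPM in females on the normal diet and 0.911% ± 0.0687 on the high fat diet. In males the sums were 0.704% ± 0.0362 on the normal diet and 0.741% ± 0.117 on the high fat diet. The male normal diet libraries ran from 0.676% to 0.757% and the female ones from 0.710% to 0.970%, so the sexes overlapped. As shares of CPM (counts relative to the scaled library size, not to transcript length) the sums were 1.37% ± 0.149 and 1.28% ± 0.159 for females (normal and high fat diet) and 1.21% ± 0.109 and 1.22% ± 0.218 for males. The order of the female diet means thus turned between the scales. The spread between libraries of a group was set beside that of 7356 tested genes. Their mean log2 CPM was at least that of the lowest member, so they are not matched to the members' levels. The median SD of log2 CPM was 0.20 for members and 0.14 for those genes in females on the normal diet. Females fed the high fat diet gave 0.21 and 0.19. For males the medians were 0.17 and 0.16 on the normal diet and 0.23 and 0.15 on the high fat diet.

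The high fat diet changed few of the 39 genes, and those that passed the test did not move as a block. In females Crot, which makes medium-chain acylcarnitines in peroxisomes, and Bdh1, the enzyme that interconverts acetoacetate and beta-hydroxybutyrate, rose. Eci2, an isomerase for unsaturated chains, Slc25a20, the carnitine-acylcarnitine carrier, and Pex11a, a peroxisomal membrane protein of peroxisome division, fell. In males the pantetheinase gene Vnn1 and Acot2 rose and Eci2 fell. Eci2 was the 1 member that passed the test in both sexes.

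A gene was called at an edgeR p-value under 0.05 after Benjamini-Hochberg adjustment across the whole set of tested genes. In females the diet changed 5 of 39 members (12.8%), beside 11.5% of all tested genes. Of these, 2 rose, beside 5.74% of all tested genes, and 3 fell, beside 5.76%. In males it changed 3 of 39 (7.69%), beside 11.4%. There 2 rose, beside 6.03%, and 1 fell, beside 5.36%. Both shares are near those of all genes. The median log2 fold change of the members was -0.15 in females, where 31 of 39 had a negative value, and the median of all genes was 0.00. In males the members' median was -0.02 and that of all genes 0.01. The libraries of the diet groups did not overlap for 8 members in females, beside 18.3% of all tested genes, and for 4 in males, beside 18.5%. With scaling to library totals the median of all genes in the female comparison moved to 0.19 and that of the members to 0.03, so the sign of the members' median turned while it stayed below that of all genes. On that scaling 2 members were called upward and 2 downward in females, beside 18.2% of all tested genes called in either direction. With limma on log2(TPM + 1) 2 were called upward and 1 downward, beside 19.8%. In males both scalings gave 3 calls, all of them upward, beside 12.4% of all tested genes with library totals and 9.08% with limma.

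Leaving out 1 library moved the members' counts and the counts over all genes. In females 2 members stayed called without female normal diet replicate 1, 2 or 4 or female high fat diet replicate 1, and 3 without female normal diet replicate 3 or high fat diet replicate 4. The 2 were Crot and Eci2. In these 6 fits 6.29% to 8.97% of all tested genes were called. In males 1 member, Vnn1, stayed called without normal diet replicate 1 or high fat diet replicate 2, and 5 were called without high fat diet replicate 1. The shares of all tested genes were 8.24%, 7.68% and 12.7%. Without both male high fat diet replicates 2 and 3, 3 members were called in males and none of them was among the 3 called with all libraries: Acaa1b, Acot3 and Acsl5, all lower on the high fat diet, beside 7.61% of all tested genes called.

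Markers of other cells differed between the diets as well. The summed level of 5 Kupffer cell markers, all detected, was 137.5 to 190.1 TPM in females on the normal diet and 253 to 409 TPM on the high fat diet. Female sums of 5 T and B cell markers were 2.55 to 3.7 TPM on the normal diet and 3.99 to 8.73 TPM on the high fat diet. Of these markers, Cd3e had a lower mean on the high fat diet. In males the sum of 6 hepatocyte markers was 63790 to 75170 TPM on the normal diet and 52270 to 63730 TPM on the high fat diet. That sum was carried by Alb, whose mean was 44180 TPM on the normal diet and 32780 TPM on the high fat diet, while the means of Serpina1c, Fgb and Apoc3 were higher on the high fat diet. The sum of 5 adipocyte markers in males was 5.8 to 10.58 TPM on the normal diet and 11.68 to 62.94 TPM on the high fat diet. It came mostly from Cidec and Cfd, while the defining adipocyte genes Adipoq, Plin1 and Lep were at most 1.77, 0.39 and 0.09 TPM in any library. The part of these markers in the diet results was not tested.

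**Figure D2:**
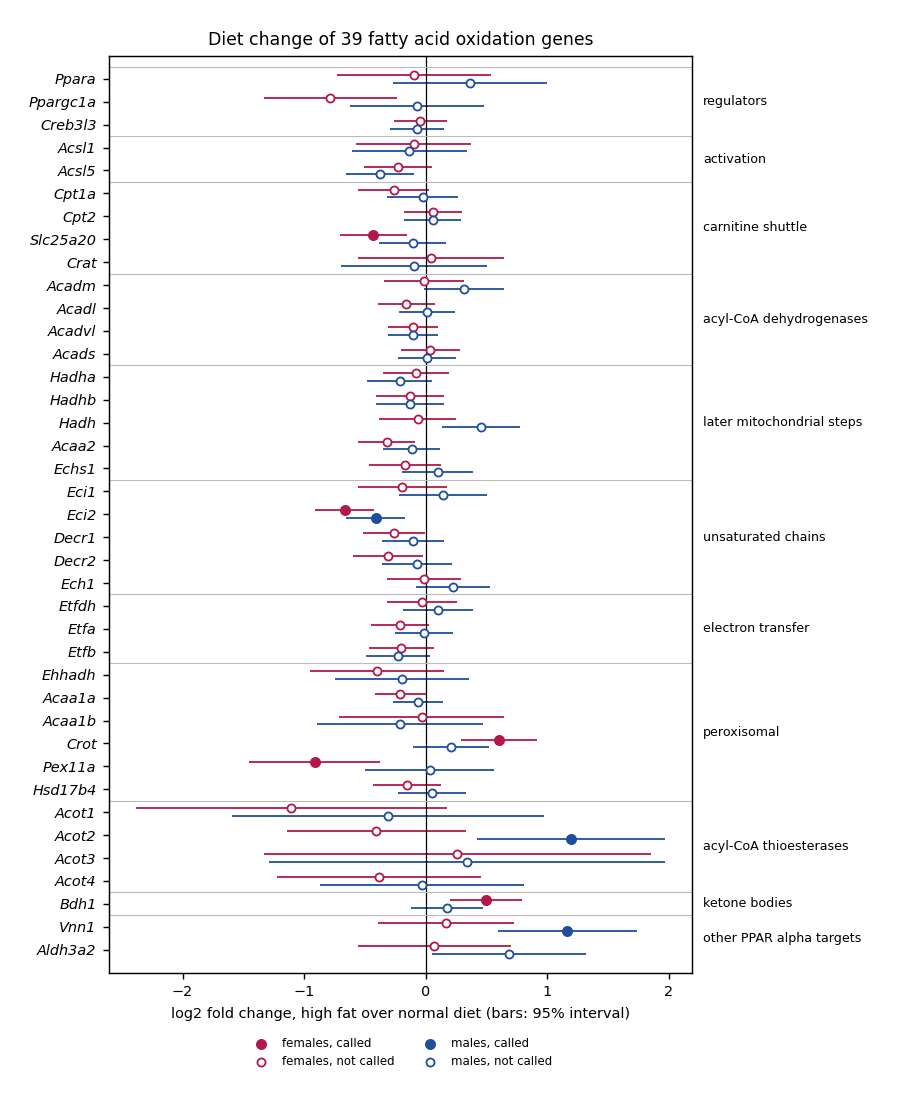
Log2 fold change of each gene on the high fat diet over the normal diet in females and males, with 95% intervals, ordered by role; filled points passed the test. Filled points mark 5 genes in females and 3 in males, and the widest intervals are those of Acot1 and Acot3.

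The diet response was compared between the sexes by an interaction term, the female diet change minus the male one. edgeR called 0 of 39 members, beside 0.677% of all tested genes. At an unadjusted p under 0.05 there were 4 members, Acot2, Pex11a, Vnn1 and Hadh, each with a negative term. They were 10.3% of the list, and 1918 of all tested genes (13%) had such a p. DESeq2 called 1 member, Acot2, and 341 of all tested genes (2.31%). The term of Acot2 was -1.60 ± 0.50 on the log2 scale (edgeR adjusted p = 0.182) and that of Pex11a was -0.95 ± 0.36 (edgeR adjusted p = 0.268), where ± gives the standard error here and for all log2 values below. A difference between the sexes in the diet response of the genes named above was therefore not shown by edgeR.

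Between the sexes 14 members passed the test on the normal diet, and RNA was higher in females for 13 of them and lower for 1. Those higher in females included the dehydrogenases Acadl and Hadh, the hydratase Echs1, 4 enzymes for unsaturated chains, the electron transfer subunits Etfa and Etfb, the thioesterases Acot2, Acot3 and Acot4, and Vnn1. Acsl1, the main hepatic long-chain acyl-CoA synthetase, was the member lower in females. The 14 were 35.9% of the list, beside 15.7% of all tested genes. Of all tested genes 7.03% were higher and 8.68% lower in females. The members' median difference was 0.27 on the log2 scale, and that of all genes 0.00. Groups did not overlap for 17 members, beside 22% of all tested genes. The count was 7 without female normal diet replicate 2, 6 without male normal diet replicate 3 and 9 without male normal diet replicate 4, where the shares of all tested genes called were 8.77%, 9.13% and 11.1%. Acadl, Hadh, Acot2, Acot3 and Vnn1 were among the called members in each of these 3 fits.

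On the high fat diet 9 of 39 members (23.1%) differed between the sexes, beside 20.4% of all tested genes. Acadl, Bdh1, Acot3, Acot4, Etfb and Acsl5 were higher in females, beside 8.84% of all tested genes, and Cpt1a, Pex11a and Acsl1 were lower, beside 11.6%. The members' median was 0.18 and that of all genes -0.01, and groups did not overlap for 7 members, beside 22.7% of all tested genes. Of the members, 5 passed the test on both diets with the same sign: Acadl, Acot3, Acot4, Etfb and Acsl1. The same count was not made over all tested genes, so no share stands beside it. The count on the high fat diet was 4 without female high fat diet replicate 1 or male high fat diet replicate 4, fits in which 14.8% and 13.1% of all tested genes were called. Without male high fat diet replicates 2 and 3 it was 15, all higher in females, and 6 of the 9 were among them: Acadl, Bdh1, Acot3, Acot4, Etfb and Acsl5. In that fit 17.4% of all tested genes were called. The split by direction also depended on the scaling. With library totals 11 members were higher and 1 lower, beside 22.8% of all tested genes called in either direction. With limma on log2(TPM + 1) 13 were higher and 0 lower, beside 25.1%. These scalings moved the median of all genes to 0.12 and 0.10.

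The summed hepatocyte markers did not overlap between the sexes, with 77270 to 89940 TPM in females and 63790 to 75170 TPM in males on the normal diet, and 75400 to 93390 TPM and 52270 to 63730 TPM on the high fat diet. Alb carried these sums too, with means of 58500 TPM in females and 44180 TPM in males on the normal diet and 54810 and 32780 TPM on the high fat diet. The list was mixed: the means of Serpina1c and Fgb were higher in males on both diets, and that of Apoa1 on the normal diet. The sum of 5 T and B cell markers was 2.55 to 3.7 TPM in females and 0.6 to 2.03 TPM in males on the normal diet. The Kupffer cell sum on the high fat diet was 253 to 409 TPM in females and 109.3 to 241.9 TPM in males. The part of these markers in the sex results was not tested.

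**Figure D3:**
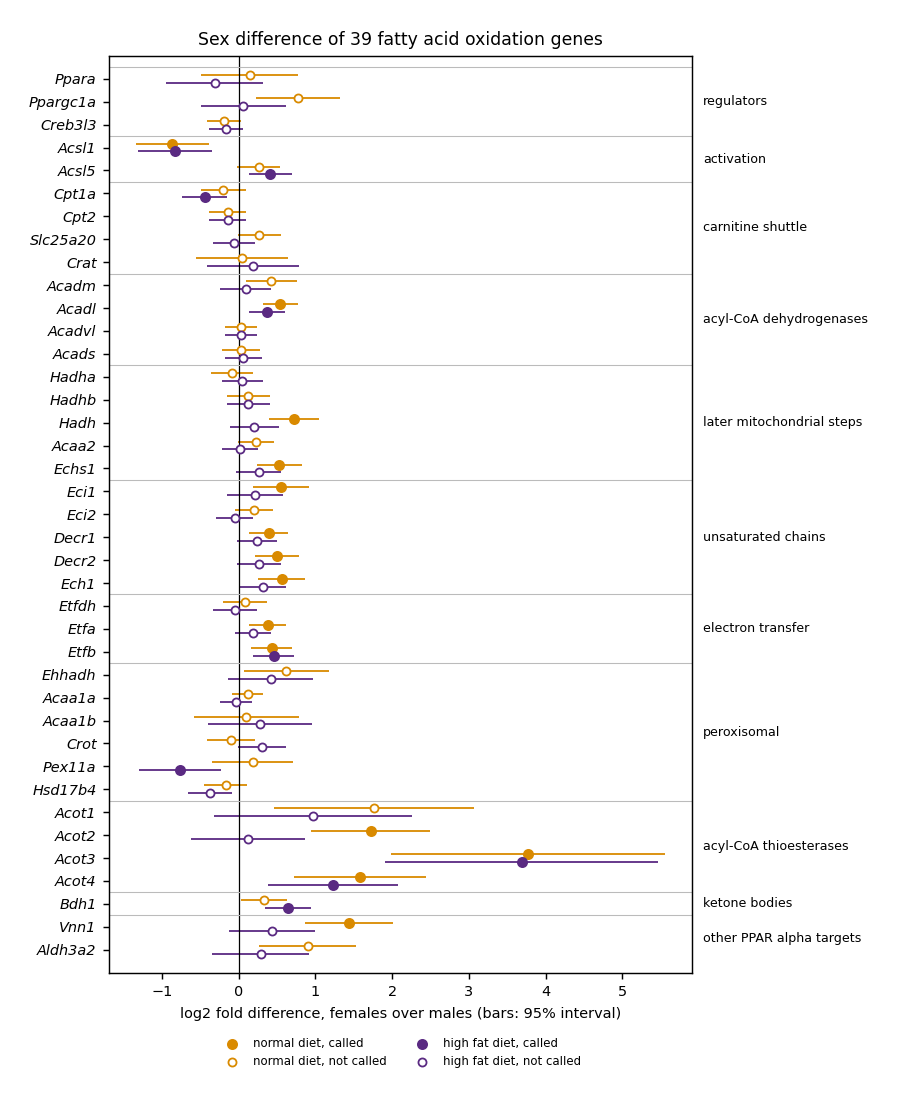
Log2 difference of each gene between females and males on the normal and the high fat diet, with 95% intervals, ordered by role; filled points passed the test and positive values are higher in females. Filled points mark 14 genes on the normal diet and 9 on the high fat diet, and Acot3 lies farthest from 0, at 3.77 and 3.69.

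The 3 regulators gave no call in any comparison. Ppara (ENSMUSG00000022383.14), the fatty acid-sensing nuclear receptor, had 74.6, 92.4, 126.1 and 113.1 CPM in replicates 1 to 4 of females on the normal diet and 41.2, 122.7, 120.2 and 95.8 CPM on the high fat diet. The male libraries had 67.3, 81.0, 97.9 and 121.6 CPM on the normal diet and 77.9, 139.9, 136.1 and 118.6 CPM on the high fat diet. All 4 groups overlapped, and the lowest value of all was female high fat diet replicate 1. The log2 fold change with diet was -0.10 ± 0.30 in females (edgeR adjusted p = 0.867) and 0.36 ± 0.30 in males (edgeR adjusted p = 0.47), with 95% intervals of -0.73 to 0.54 and -0.27 to 0.99. In females the sign was positive without female normal diet replicate 3 (0.03) or female high fat diet replicate 1 (0.15), and with the TPM and library-total scalings. Ppargc1a, a coactivator of PPAR alpha and of other receptors, was at 14.49 to 26 CPM in females on the normal diet and 8.13 to 12.5 CPM on the high fat diet, with no overlap, but its change of -0.79 ± 0.26 missed the threshold (edgeR adjusted p = 0.0583). Creb3l3, a liver transcription factor held in the endoplasmic reticulum, ran between 193.5 and 286.5 CPM over all libraries.

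Of the acyl-CoA synthetases, Acsl1 (ENSMUSG00000018796.14) was lower in females on both diets. Females had 737.7, 987.1, 1219 and 1153 CPM on the normal diet and 700.1, 1209, 1150 and 765.2 CPM on the high fat diet. Males had 1549, 1525, 1819 and 2566 CPM on the normal diet and 1207, 2009, 2055 and 1523 CPM on the high fat diet. On the normal diet all males were above all females, while on the high fat diet male replicate 1 fell just below the highest female. The difference was -0.86 ± 0.23 on the normal diet (1.82-fold lower in females, edgeR adjusted p = 0.0163) and -0.83 ± 0.23 on the high fat diet (1.78-fold, edgeR adjusted p = 0.0166). The first call was lost without female normal diet replicate 1 or 2 or male normal diet replicate 4, at adjusted p of 0.0597, 0.0521 and 0.0606. The second was lost without female high fat diet replicate 1 or 4 (0.0563 and 0.0562), without both male high fat diet replicates 2 and 3 (0.187), and on the TPM scale (0.0514). Acsl5, a synthetase of the mitochondrial and endoplasmic reticulum membranes, was called higher in females on the high fat diet alone, where its 4 female libraries had 297.1 to 392 CPM and its male ones 217.8 to 291.8 CPM. That call was lost without female high fat diet replicate 1 or 3 or male high fat diet replicate 1 or 4, at adjusted p of 0.0743 to 0.11.

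The carnitine shuttle gave 1 call with diet and 1 with sex among its 4 genes. Cpt1a (ENSMUSG00000024900.6), which makes long-chain acylcarnitines at the outer mitochondrial membrane and controls entry to oxidation, had 427.7, 570.1, 660.8 and 658.7 CPM in females on the normal diet and 477.5, 467.5, 483.6 and 502.8 CPM on the high fat diet. Males had 563.4, 765.2, 582.1 and 756.2 CPM on the normal diet and 618, 688.4, 698.1 and 619.4 CPM on the high fat diet. The diet groups overlapped in both sexes, and on the high fat diet all males lay above all females. The change with diet was -0.26 ± 0.14 in females (edgeR adjusted p = 0.234) and -0.02 ± 0.14 in males (edgeR adjusted p = 0.938), with 95% intervals of -0.55 to 0.03 and -0.32 to 0.27, and neither sign held on the log2(TPM + 1) scale (0.0041 and 0.07). On the high fat diet Cpt1a was 1.36-fold lower in females, a difference of -0.44 ± 0.14 (edgeR adjusted p = 0.0317). Leaving out any of those 8 libraries ended the call, with adjusted p between 0.0511 and 0.0803, as did leaving out both male replicates 2 and 3 (0.155), scaling to library totals (0.121) and the log2(TPM + 1) scale (0.225).

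Slc25a20, the carrier that exchanges acylcarnitine for carnitine across the inner membrane, had 179.7 to 215.5 CPM in females on the normal diet and 112.6 to 179.4 CPM on the high fat diet, with no overlap. It fell by 0.43 ± 0.13 on the log2 scale (edgeR adjusted p = 0.0403). The call was lost without any of the 4 female normal diet libraries or female high fat diet replicate 1 or 4, at adjusted p of 0.0539 to 0.13, with library totals (0.172) and on the TPM scale (0.254). Cpt2, which regenerates acyl-CoA inside, and Crat were called in no comparison. Their log2 values across the diet and sex comparisons lay between -0.15 and 0.18.

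Among the 4 mitochondrial acyl-CoA dehydrogenases, which catalyse the first oxidation of each cycle on chains of different length, diet gave no call in either sex. Their diet changes lay between -0.16 and 0.04 in females and between -0.10 and 0.32 in males. Acadl, the long-chain enzyme, was higher in females on both diets: its female libraries had 382.1 to 424.6 CPM on the normal diet and 322.4 to 393.4 CPM on the high fat diet, and its male libraries 244.7 to 302.7 and 247.9 to 311.3 CPM. Groups of different sex did not overlap on either diet. The difference was 0.54 ± 0.11 on the normal diet (edgeR adjusted p = 0.00336), kept in each fit that left out 1 library, and 0.37 ± 0.11 on the high fat diet (edgeR adjusted p = 0.0243), lost without female high fat diet replicate 3 (0.0531) or male high fat diet replicate 4 (0.0836). Acadvl and Acads, the very long-chain and short-chain enzymes, had sex differences of 0.03 to 0.06, and those of Acadm, the medium-chain enzyme, were 0.42 and 0.09, none of them called.

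The later mitochondrial steps gave no diet call among 5 genes and 2 calls with sex on the normal diet. Hadh (ENSMUSG00000027984.9), the short-chain hydroxyacyl-CoA dehydrogenase, had 399.2, 455.2, 430.2 and 393.9 CPM in females and 296, 224.4, 241.7 and 255.1 CPM in the normal diet males. The high fat diet values were 373.2, 402.2, 439.7 and 387.4 CPM for females and 255.4, 422.9, 433.3 and 281.1 CPM for males. The sexes did not overlap on the normal diet, and on the high fat diet male replicates 2 and 3 lay among the females while replicates 1 and 4 lay below them. The difference was 1.65-fold on the normal diet, 0.72 ± 0.15 (edgeR adjusted p = 0.00419), a call kept under each alternative run. That on the high fat diet was 0.20 ± 0.15 (edgeR adjusted p = 0.362), and Hadh was among the members called there without male replicates 2 and 3. Echs1, the short-chain enoyl-CoA hydratase, was 1.44-fold higher in females on the normal diet (edgeR adjusted p = 0.016) and lost its call without female normal diet replicate 1 or 2 or male normal diet replicate 3 or 4, at 0.053 to 0.0641. Acaa2 was not called, at -0.32 ± 0.11 with diet in females (edgeR adjusted p = 0.069), where the diet groups did not overlap.

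Hadha and Hadhb, the alpha and beta subunits of the mitochondrial trifunctional protein, which joins the last 3 reactions of the cycle on long chains, were called in no comparison. The ratio of their CPM, Hadha over Hadhb, stayed between 1.14 and 1.58 over the 16 libraries, with a median of 1.31. In the RefSeq annotation of GRCm38.p6 the genes point away from each other on chromosome 5, with starts 273 bases apart, so that their promoter windows share 228 bases. The deposited tables use GRCm39, and these coordinates are not those of the tables. The shared stretch, all of it before both starts, is shown on the strand of Hadhb because it is the promoter sequence that the paired subunits have in common, at chr5:30155003-30155230.
Hadhb: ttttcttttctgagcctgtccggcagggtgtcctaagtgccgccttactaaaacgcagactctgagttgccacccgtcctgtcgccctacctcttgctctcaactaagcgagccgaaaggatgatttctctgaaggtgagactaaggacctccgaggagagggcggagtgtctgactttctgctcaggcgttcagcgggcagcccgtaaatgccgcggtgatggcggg

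The diet change of the 5 auxiliary enzymes for unsaturated chains lay between -0.67 and -0.01 in females and between -0.41 and 0.23 in males, and 1 of the 5 passed the test in each sex. Eci2 (ENSMUSG00000021417.16), a peroxisomal and mitochondrial enoyl-CoA isomerase that moves double bonds into the position the cycle can use, had 300.9, 308.7, 326.7 and 310.3 CPM in females on the normal diet and 194.1, 222.7, 209.8 and 159.4 CPM on the high fat diet. Its male levels were 323.9, 251.1, 246.3 and 265.4 CPM on the normal diet and 213.2, 204, 214 and 185 CPM on the high fat diet. In both sexes every high fat diet library lay below every normal diet library. Eci2 fell 1.59-fold in females, -0.67 ± 0.12 (edgeR adjusted p = 0.00155), a call kept under each alternative run. In males it fell 1.33-fold, -0.41 ± 0.12 (edgeR adjusted p = 0.0273). The male call was lost without normal diet replicate 1 (0.0896), high fat diet replicate 2 (0.0603) or 4 (0.0862), without high fat diet replicates 2 and 3 together (0.0723), and with library totals (0.0616) or on the TPM scale (0.0631), the value then being -0.32 to -0.45.

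The other 4 enzymes of unsaturated chains, Eci1, Decr1, Decr2 and Ech1, were each called higher in females on the normal diet. Eci1 and Decr1 are the mitochondrial isomerase and dienoyl-CoA reductase, Decr2 is the peroxisomal reductase, and Ech1 is a dienoyl-CoA isomerase. Their differences were 0.55 ± 0.17, 0.39 ± 0.12, 0.50 ± 0.14 and 0.56 ± 0.14, at edgeR adjusted p of 0.0391, 0.0358, 0.0199 and 0.0142. The sexes did not overlap for any of the 4: the Ech1 libraries, for example, had 259 to 271 CPM in females and 162 to 203.2 CPM in males. All 4 calls were lost without male normal diet replicate 3, at adjusted p of 0.126, 0.117, 0.0723 and 0.0502. Those of Eci1 and Decr1 were also lost without male normal diet replicate 2 or 4 or female normal diet replicate 2, 3 or 4, at 0.0568 to 0.103 for Eci1 and 0.0617 to 0.0858 for Decr1. That of Decr2 was also lost without female or male normal diet replicate 2 (0.0658 and 0.0558). On the high fat diet the differences were 0.21 to 0.32 and none was called.

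The electron transfer flavoprotein, a dimer of the Etfa and Etfb products, takes electrons from the acyl-CoA dehydrogenases to Etfdh, which hands them to ubiquinone. None of the 3 genes was called with diet. Etfb was higher in females on both diets, by 0.43 ± 0.13 on the normal diet (edgeR adjusted p = 0.0284) and 0.46 ± 0.13 on the high fat diet (edgeR adjusted p = 0.0173). Its female high fat diet libraries had 259.6 to 347.2 CPM and its male ones 197 to 216.5 CPM. On the normal diet male replicate 1, at 307.9 CPM, lay within the female range of 294.3 to 363.2 CPM. Etfa was higher in females on the normal diet by 0.38 ± 0.11 (edgeR adjusted p = 0.0308), with overlap, and Etfdh gave 0.08 and -0.05. The Etfa call was lost without female normal diet replicate 1, 2 or 4 or male normal diet replicate 2, 3 or 4 (0.0509 to 0.112), and the Etfb call on the normal diet without female replicate 1 or 2 or male replicate 2, 3 or 4 (0.0658 to 0.0961). The Etfb call on the high fat diet was lost without female replicate 1 or male replicate 4 (0.0563 and 0.0544).

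The 6 peroxisomal members held both a gene that rose and a gene that fell with the diet in females. Crot (ENSMUSG00000003623.5), the carnitine octanoyltransferase that readies shortened chains for export to mitochondria, had 538.6, 696.3, 792.7 and 763.1 CPM in females on the normal diet and 972.7, 1171, 1250 and 853.6 CPM on the high fat diet. Male values were 651.8, 866.1, 635.5 and 828.8 CPM on the normal diet and 888.1, 878.6, 867.2 and 815.1 CPM on the high fat diet. The female groups did not overlap and the male groups did. Crot rose 1.52-fold in females, 0.61 ± 0.15 (edgeR adjusted p = 0.0142), kept under each alternative run, and its change in males was 0.21 ± 0.15 (edgeR adjusted p = 0.385).

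Pex11a (ENSMUSG00000030545.10) went the other way in females. It had 156.8, 169.6, 220.4 and 177.1 CPM on the normal diet and 69.3, 108.7, 131.8 and 74.5 CPM on the high fat diet, without overlap. The male libraries had 189.1, 112.8, 155.8 and 180.7 CPM on the normal diet and 102.9, 210.5, 215.6 and 124.4 CPM on the high fat diet, where replicates 2 and 3 were above and replicates 1 and 4 within or below the normal diet range. Pex11a fell 1.88-fold in females, -0.91 ± 0.25 (edgeR adjusted p = 0.0296). The call was lost without any of the 4 female normal diet libraries or female high fat diet replicate 1 or 4, at adjusted p of 0.0502 to 0.0911, and on the TPM scale (0.0563). It was also 1.70-fold lower in females than in males on the high fat diet, -0.77 ± 0.25 (edgeR adjusted p = 0.042), with overlap. That call was lost without female high fat diet replicate 1, 2 or 4 or male high fat diet replicate 2 or 3 (0.0519 to 0.128), and without both of these males the difference was -0.24 (0.533).

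The other peroxisomal members gave no call. They are Ehhadh and Hsd17b4, the bifunctional enzymes of the peroxisomal cycle, and Acaa1a and Acaa1b, near-identical thiolases between which counting can divide reads. The largest of their differences was that of Ehhadh between the sexes on the normal diet, 0.62 ± 0.26 (edgeR adjusted p = 0.116). With the thiolase counts summed, none of the 5 comparisons gave a call either. Acaa1b had 218.7, 702.6, 716.5 and 292.5 CPM in males on the high fat diet, the widest spread of the peroxisomal genes in that group relative to its mean, and 484 to 620.6 CPM in males on the normal diet.

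**Figure D4:**
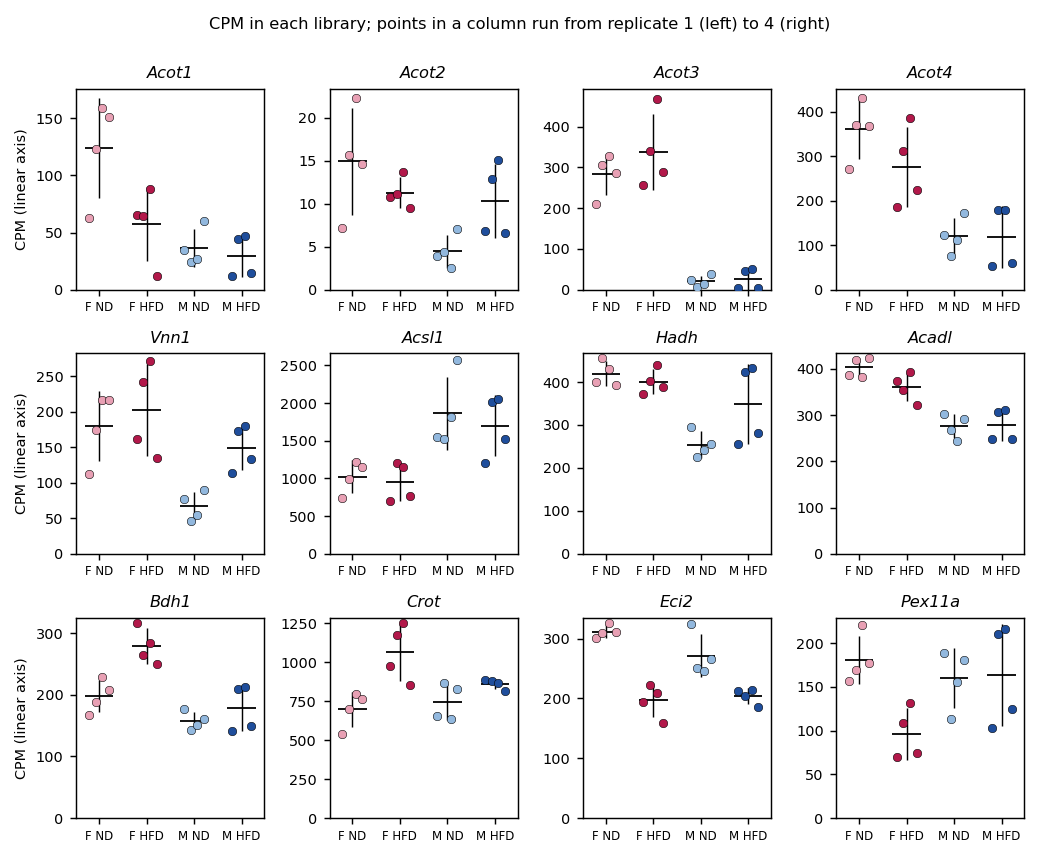
CPM of 12 members in each library of females (F) and males (M) on the normal diet (ND) and high fat diet (HFD), on linear axes that start at 0; horizontal lines are group means and vertical lines ± SD. The female points of Acot3 run from 210.9 to 468.7 CPM and the male ones from 3.32 to 50.8 CPM, and male high fat diet replicates 2 and 3 lie above replicates 1 and 4 in several panels.

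The thioesterases Acot1 to Acot4 had the 4 widest differences between the sexes among the members on the normal diet. They split acyl-CoA into free fatty acid and CoA. Acot1 acts in the cytosol, Acot2 in mitochondria, and Acot3 and Acot4 in peroxisomes. Acot3 (ENSMUSG00000021228.16) had 210.9, 305.9, 328.6 and 285.9 CPM in females on the normal diet and 257.1, 339.9, 468.7 and 289.2 CPM on the high fat diet. Males had 23.4, 7.48, 13.5 and 38.4 CPM on the normal diet and 4.09, 46.4, 50.8 and 3.32 CPM on the high fat diet. Every female library was above every male one, and in males on the high fat diet replicates 2 and 3 were above and replicates 1 and 4 below the whole normal diet range. The difference was 13.6-fold on the normal diet, 3.77 ± 0.83 (edgeR adjusted p = 0.00913), and 12.9-fold on the high fat diet, 3.69 ± 0.82 (edgeR adjusted p = 0.00831). Both calls held under each alternative run, with values from 1.89 to 6.51. The lowest value comes from the sum over the 4 genes and the highest from leaving out male high fat diet replicates 2 and 3. The SD of log2 CPM of Acot3 in males on the high fat diet was 2.14, the highest of any member in any group.

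Acot4 (ENSMUSG00000052392.6) had 270.9, 370.5, 431.9 and 367.6 CPM in females on the normal diet and 184.8, 311.3, 385.1 and 223.6 CPM on the high fat diet. Its male levels were 123.3, 75.4, 111.9 and 172.1 CPM on the normal diet and 54.1, 178, 179.4 and 60.7 CPM on the high fat diet. All females were above all males on the same diet. The difference was 2.98-fold on the normal diet, 1.58 ± 0.40 (edgeR adjusted p = 0.0171), and 2.34-fold on the high fat diet, 1.23 ± 0.40 (edgeR adjusted p = 0.0423). The first call was lost without male normal diet replicate 3 (0.0528), and the second without female high fat diet replicate 2, 3 or 4 or male high fat diet replicate 1 or 4 (0.0584 to 0.105).

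Acot2 (ENSMUSG00000021226.8), the lowest of the 4 in CPM, had 7.15, 15.7, 22.3 and 14.6 CPM in females on the normal diet and 10.8, 11.2, 13.7 and 9.46 CPM on the high fat diet. Male values were 3.87, 4.34, 2.55 and 7.09 CPM on the normal diet and 6.76, 12.9, 15.1 and 6.60 CPM on the high fat diet. The sexes did not overlap on the normal diet, and the male diet groups overlapped at their edges. It was 3.30-fold higher in females on the normal diet, 1.72 ± 0.36 (edgeR adjusted p = 0.00567), a call kept under each alternative run. In males it rose 2.29-fold with the diet, 1.20 ± 0.36 (edgeR adjusted p = 0.0464). That call was lost without male normal diet replicate 1, 2 or 3 or high fat diet replicate 2 or 3 (0.102 to 0.129). Without both high fat diet replicates 2 and 3 the change was 0.56 (0.425), and with the 2 averaged it was 1.01 (0.122).

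Acot1 (ENSMUSG00000072949.7) was not called in any comparison: its difference between the sexes on the normal diet was 1.76 ± 0.60 (edgeR adjusted p = 0.0653), with 62.3 to 159.1 CPM in females and 23.8 to 60.3 CPM in males. Since the 4 genes are close relatives, reads can be divided between them by the counting. Summed over the family, RNA was 4.29-fold higher in females on the normal diet, 2.10 ± 0.44 (edgeR adjusted p = 0.00637), and 3.72-fold on the high fat diet, 1.89 ± 0.44 (edgeR adjusted p = 0.00905), and the sum had no diet call in females (-0.19 ± 0.42, edgeR adjusted p = 0.808) or males (0.01 ± 0.43, edgeR adjusted p = 0.989). The make-up of the family differed too: Acot3 took 43.7% to 51.8% of the summed TPM in females on the normal diet and 59.4% to 70.1% on the high fat diet, but 10.4% to 20.4% and 7.67% to 26.1% in males. Acot3 and Acot4 also overlap exons of an antisense gene and of a gene model on the same strand in the GENCODE M21 annotation. In all, 15 members overlap an exon of another gene there, 14 of them on the opposite strand, among them Eci2, Bdh1, Crot, Acsl1, Acsl5, Echs1 and Acaa1b. The strand setting of the counting is not given in the sources used here, so the values of these members are uncertain to that extent.

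The family lies in 1 cluster. In RefSeq for GRCm38.p6 the starts of Acot2, Acot1, Acot4 and Acot3 follow each other on the plus strand of chromosome 12 within 64283 bases, and that of Acot3 comes 13765 bases after that of Acot4. The 250 bases before the starts of the pair that differed between the sexes on both diets are shown here, Acot4 at chr12:84038129-84038378 and Acot3 at chr12:84051894-84052143. Capitals mark a match to a searched motif.
Acot4: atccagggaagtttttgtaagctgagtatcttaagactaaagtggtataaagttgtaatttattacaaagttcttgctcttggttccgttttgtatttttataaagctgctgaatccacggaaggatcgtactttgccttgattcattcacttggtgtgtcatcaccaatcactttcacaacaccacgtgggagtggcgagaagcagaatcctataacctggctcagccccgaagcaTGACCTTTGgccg
Acot3: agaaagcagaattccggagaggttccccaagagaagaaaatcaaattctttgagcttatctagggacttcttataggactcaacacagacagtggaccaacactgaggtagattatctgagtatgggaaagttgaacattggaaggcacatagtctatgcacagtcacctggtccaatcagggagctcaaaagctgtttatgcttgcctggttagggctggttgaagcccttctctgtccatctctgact

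Binding motifs were searched on both strands of the RefSeq promoter windows, which run from 250 bases before to 50 bases after a start and exist for 34 of the 39 members, in 38 windows. The element bound by PPAR alpha with its partner RXR is a direct repeat spaced by 1 base. Written as AGGTCA, any base and AGGTCA again, it was in 0 of 38 member windows and in 0.04% of all 32851 windows. The looser form with AGGNCA in both places, which includes the first, was in 0 of 38 and in 0.381% of all windows. The shorter core CAAAGGTCA was in 1 of 38, that of Acot4, and in 0.478% of all windows. Its match there, TGACCTTTG on the strand shown, starts 13 bases before the Acot4 start. The extended single site TCAAGGTCA, bound by estrogen-related receptors, was in 0 of 38 and in 0.423% of all windows. A match is a description of the sequence, and its absence says only that these letters are not in these windows.

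Bdh1 (ENSMUSG00000046598.16), the ketone body member, had 166.6, 189.2, 228.9 and 207.4 CPM in females on the normal diet and 316.8, 265.3, 285.1 and 249.5 CPM on the high fat diet. The male libraries had 176.9, 143.1, 151 and 161.3 CPM on the normal diet and 141.8, 209.7, 212.9 and 150 CPM on the high fat diet. Females on the high fat diet lay above all other libraries, and the male groups overlapped. Bdh1 rose 1.41-fold in females, 0.50 ± 0.14 (edgeR adjusted p = 0.0318), and its change in males was 0.18 ± 0.14 (edgeR adjusted p = 0.456). The female call was lost without normal diet replicate 1, 2 or 4 or high fat diet replicate 1 or 3 (0.0514 to 0.0932). It was 1.56-fold higher in females on the high fat diet, 0.64 ± 0.14 (edgeR adjusted p = 0.00461), a call kept under each alternative run.

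Of the other PPAR alpha targets, Vnn1 (ENSMUSG00000037440.9), which releases pantothenate from pantetheine, had 76.7, 46, 54.8 and 89.2 CPM in normal diet males and 113.9, 172.5, 179.6 and 132.9 CPM on the high fat diet. In females it had 112.2, 174.7, 216.7 and 217.4 CPM on the normal diet and 161.5, 242.6, 271.2 and 135.3 CPM on the high fat diet. Males on the normal diet lay below all other libraries. Vnn1 rose 2.25-fold with the diet in males, 1.17 ± 0.27 (edgeR adjusted p = 0.0109), kept without each library in turn but lost without both high fat diet replicates 2 and 3, at 0.89 (0.116). It was 2.70-fold higher in females on the normal diet, 1.43 ± 0.27 (edgeR adjusted p = 0.00241), a call kept under each alternative run. Aldh3a2, the fatty aldehyde dehydrogenase, was not called: males fed the high fat diet had 238.8, 781.3, 763 and 402.6 CPM, and its change in males was 0.68 ± 0.30 (edgeR adjusted p = 0.15).

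The male high fat diet group was split in the same way for most members. Replicates 2 and 3 were the 2 highest libraries of that group for 35 of 39 members, beside 27.2% of all tested genes. No other pair of libraries in any group held that place for more than 22 members, but the other groups were split too. In males on the normal diet replicates 1 and 4 held it for 22 members, beside 14.4% of all tested genes. In females replicates 3 and 4 held it for 21 on the normal diet, beside 23%. On the high fat diet female replicates 2 and 3 held it for 22, beside 24.5%. Male high fat diet replicates 1 and 4 held it for 0 members, beside 28.7%. The acinar marker sum was 41.45 and 17.08 TPM in male high fat diet replicates 2 and 3. In replicates 1 and 4 it was 1.25 and 0.62 TPM. The adipocyte sum was 55.53 and 62.94 against 11.68 and 26.33 TPM. That of hepatocyte markers was 62980 and 63730 against 52720 and 52270 TPM. It was carried by Alb, while Serpina1c and Fgb were lower in replicates 2 and 3. T and B cell markers, of which Cd3e, Cd3g and Cd79b overlapped, summed to 2.37 and 3.21 against 1.98 and 1.83 TPM. Kupffer cell sums, 127.4 and 109.3 against 241.9 and 178.1 TPM, went the other way. So did cholangiocyte sums, 53.83 and 47.72 against 90.43 and 88.43 TPM, and red blood cell sums overlapped. Spp1 carried the cholangiocyte sum, with 51.76 and 45.46 against 87.23 and 85.2 TPM. Epcam and Sox9 were also lower in replicates 2 and 3, while Krt7 was higher and Krt19 overlapped. The part of these differences in the members' values was not tested.

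**Figure D5:**
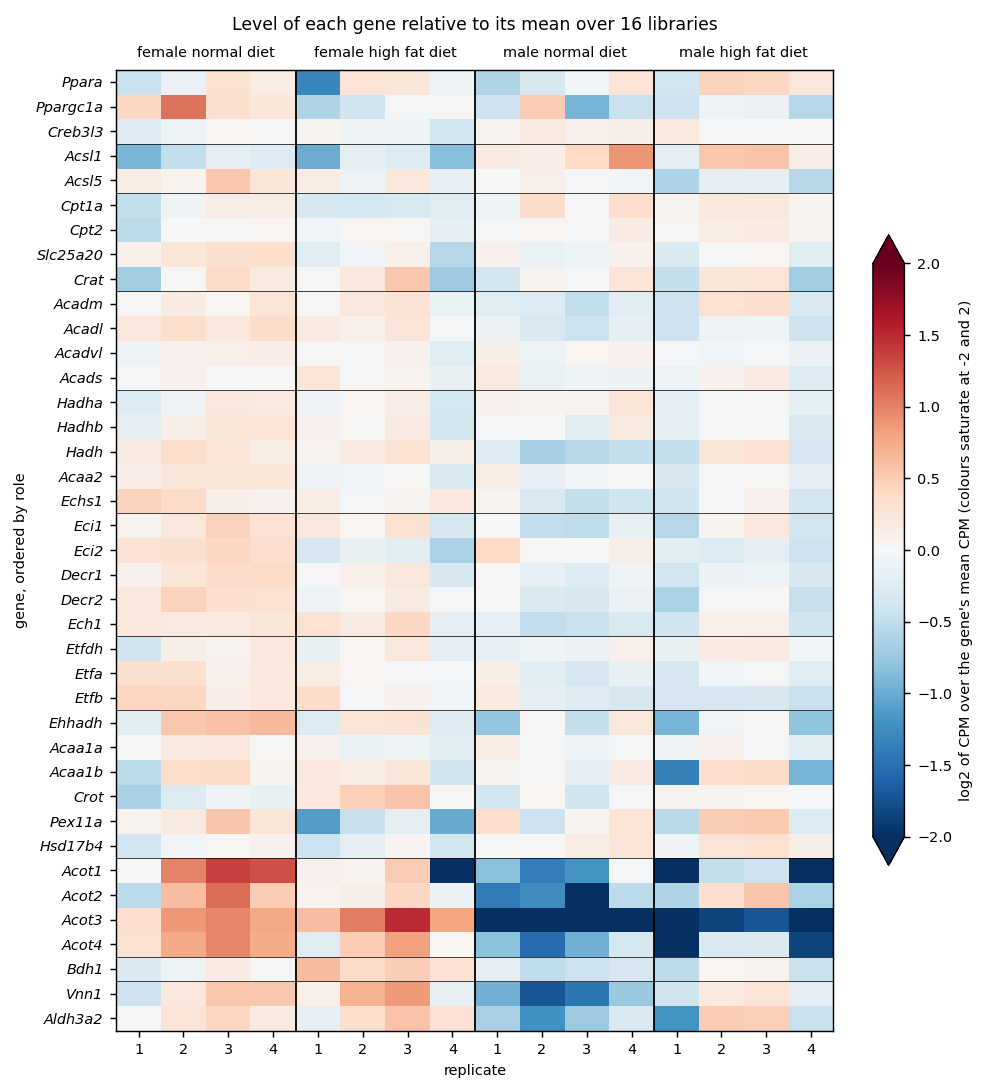
Log2 of each library's CPM over the gene's mean CPM in 16 libraries, with genes in rows ordered by role, libraries in columns ordered by group and replicate, and colours saturating at -2 and 2. Replicates 2 and 3 of males on the high fat diet are redder than replicates 1 and 4 along most rows, and the Acot3 row is blue in all 8 male columns.

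Beyond the members, 27 other genes of the pathway were read in the same fit. In females the diet changed 5 of 27 (18.5%, beside 11.5% of all tested genes). Acox2, the peroxisomal oxidase for branched chains and bile acid precursors, rose by 0.51 ± 0.11 (edgeR adjusted p = 0.00873), from 79.6 to 106.8 CPM on the normal diet to 121.1 to 136.7 CPM on the high fat diet. Acacb, whose product makes the malonyl-CoA that holds back Cpt1a, fell by 0.96 ± 0.21 (edgeR adjusted p = 0.00867), from 46.5 to 85.5 CPM down to 24.68 to 38.97 CPM. Slc22a5, the carnitine importer, fell by 0.64 ± 0.17 (edgeR adjusted p = 0.0206), and Phyh, which starts the breakdown of phytanic acid, fell by 0.37 ± 0.11 (edgeR adjusted p = 0.0394). Acox2 and Acacb kept their calls without each library in turn. Slc22a5 lost its call without female normal diet replicate 2, 3 or 4 or high fat diet replicate 1 or 4 (0.0528 to 0.076), and Phyh without any of the 8 libraries other than normal diet replicate 3 (0.0706 to 0.146). Both calls were also lost with library totals, at -0.46 (0.0562) for Slc22a5 and -0.18 (0.256) for Phyh, and with limma on log2(TPM + 1), at -0.37 (0.14) and -0.13 (0.315). The split of calls moved from 2 upward and 3 downward to 4 and 1 with library totals and with limma on log2(TPM + 1). In these fits 18.2% and 19.8% of all tested genes were called.

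In males 2 of 27 were called (7.41%, beside 11.4% of all tested genes). Acad10, an acyl-CoA dehydrogenase family member, rose by 0.58 ± 0.18 (edgeR adjusted p = 0.0401). That call was lost without any of the 4 male normal diet libraries or high fat diet replicate 2 or 3 (0.057 to 0.14), and without both of the latter its change was 0.16 (0.611). The interaction gave 0 of 27 calls by edgeR, 4 (14.8%, beside 13% of all tested genes) at an unadjusted p under 0.05, and 1 by DESeq2, Acacb, whose edgeR term was -1.15 ± 0.30 (adjusted p = 0.0943). Between the sexes 13 of 27 (48.1%, beside 15.7% of all tested genes) were called on the normal diet, 8 higher and 5 lower in females. On the high fat diet 10 (37.0%, beside 20.4%) were called, 4 higher and 6 lower. That split became 6 and 4 with limma on log2(TPM + 1), and the calls fell to 6 with a fit of the compared groups only. In these fits 25.1% and 13.8% of all tested genes were called.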

How the data were processed

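Poly(A) RNA of 16 whole-liver libraries was sequenced in 1 labelled batch. The authors deposited expected counts and TPM per gene, made with STAR and RSEM on GRCm39 per the submitters' processing notes; versions and the strand setting are not given in the sources used here. The deposited expected counts, of which 4.89% were not whole, were rounded. The deposited TPM values, which the authors scaled to transcript length and to 1000000 per library, were used for levels and marker sums. Symbols came from GENCODE M21, which named 51487 of 78317 listed genes (98.97% of counts).

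Genes were filtered with filterByExpr (14781 kept, 99.94% of counts), scaled by TMM and fitted with edgeR 4.0.16 in R 4.3.3 (robust quasi-likelihood, 1 mean per group over 16 libraries). The 5 contrasts were diet in each sex, their difference, and sex on each diet, with females minus males as the sign. Standard errors are the log2 fold change over the root of its F statistic. CPM use the TMM-scaled library size. The fit was tested on simulated data. Replicates were compared by chi-square on genes whose counts averaged 20 or more. The Kupffer cell, hepatocyte, adipocyte, acinar, T and B cell, red blood cell and cholangiocyte lists were summed in TPM; the red blood cell sums were 522.8 to 1116 TPM and the cholangiocyte sums 40.34 to 97.53 TPM over all libraries. Promoters are from RefSeq for GRCm38.p6.

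Per-library values are given for members called in any contrast with a change of at least 1.5-fold, and for Ppara, Cpt1a and Bdh1; a few others were chosen after their values were seen. Other pathway genes are named where diet or the interaction gave a call, except 1 that is not reported here. Members and lists were chosen with earlier results of these data known. Alternatives were other scalings, no filter, DESeq2 1.42.0, limma 3.58.1 on log2(TPM + 1) and log2(TPM + 0.1), a replicate block, the compared groups only, libraries left out, family sums, and male high fat diet replicates 2 and 3 averaged; leaving out both of these was added after seeing the data.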

Additional observations from a re-analysis of the deposited data

Results flagged for a closer look

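Of 156 groups of 4 libraries, 1 for each member and group, 10 held a library whose gap to the nearest other exceeded Dixon's 95% critical share of the group's range. Chance alone flags about 1 in 20 such groups.

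In females on the normal diet, Ppargc1a stood at 26 CPM in replicate 2, against 14.5 to 16.4 in the others. Replicate 1 of that group was low for 3 members. It had 90.6 CPM for Cpt2, against 129 to 132. It had 390 CPM for Ehhadh, against 658 to 708. It had 824 CPM for Acaa2, against 889 to 892. In females on the high fat diet, Acaa1b stood at 422 CPM in replicate 4, against 617 to 655.

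In males on the normal diet, Acads stood at 121 CPM in replicate 1, against 95.6 to 99.5, and Hadha at 496 CPM in replicate 4, against 432 to 441. Replicate 4 of males fed the high fat diet was low for Acadvl, with 362 CPM against 379 to 382, and for Etfb, with 197 CPM against 214 to 216. Creb3l3 stood at 287 CPM in replicate 1 of that group, against 249 to 252.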

How the results depend on the processing

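The members had 31 called values over the comparisons of diet and sex. Of 526 values of these under alternatives, 393 kept the call, 133 lost it and 0 reversed, and 9 of the 31 were called under every alternative run. Calls were lost for 10 of 31 without a filter, 6 with limma on log2(TPM + 1), 6 on log2(TPM + 0.1), 4 with library totals, 6 with the compared groups only, 2 with the replicate block, 0 with DESeq2, and 4 of 12 when replicates 2 and 3 of males on the high fat diet were averaged. The count of members called for diet in females was 3 without a filter, beside 4.19% of all genes tested in that fit. It was 3 with limma on either pseudocount, beside 19.8% and 18.7%, and 2 to 5 leaving out 1 library, beside 6.29% to 10.9%. For diet in males it was 1 without a filter (4.17% of all genes tested) and 5 with DESeq2 (15.2%). It was 1 with replicates 2 and 3 averaged (7.82%), and 1 to 5 leaving out 1 library (7.37% to 12.7%). The interaction gave 1 with DESeq2 (2.31%). For sex on the normal diet, leaving out 1 library gave 6 to 14 (8.77% to 16.5% of all genes tested). For sex on the high fat diet the count was 5 without a filter (7.98%) and 5 with the compared groups only (13.8%). It was 4 to 7 leaving out 1 library (13.1% to 20%), and 15 without male high fat diet replicates 2 and 3 (17.4%). Among the other pathway genes, diet in females gave 2 to 5 leaving out 1 library. Diet in males gave 4 with library totals, with limma on log2(TPM + 0.1) and without replicates 2 and 3, beside 12.4%, 9.42% and 7.61%. It gave 1 with these replicates averaged, and 1 to 4 leaving out 1 library. Their interaction gave 1 with DESeq2, 1 without replicates 2 and 3 (0.844%), and 0 to 1 leaving out 1 library (0.338% to 1.17%). Sex on the high fat diet gave 6 of these genes with the compared groups only. Signs turned for values that had no call. Ppara with diet in females was 0.078 with library totals, 0.0517 and 0.0502 with limma on the larger and smaller pseudocount, and -0.25 to 0.15 leaving out 1 library. Cpt1a was 0.0041 and 0.0043 with limma in females. In males it was 0.0664 with library totals, 0.069 and 0.0694 with limma, and -0.1028 to 0.0433 leaving out 1 library. Bdh1 with diet in males was -0.12 without replicates 2 and 3. The cause was not tested. Library totals moved the median log2 value of all genes to 0.19 for diet in females, 0.10 for diet in males and 0.12 for sex on the high fat diet, and limma on log2(TPM + 1) moved it to 0.15, 0.05 and 0.10 and that of the interaction to 0.11. Replicate numbers gave no clear pairing: 3 of 16 same-number pairs had deviations correlated above 0.1, and 7 matched their own number best. Same-number correlations between the diets ran from -0.159 to 0.137, and those between the sexes were all positive, 0.022 to 0.18. The correlations are small, so whether the numbers pair the libraries was not settled. With the replicate block the members' counts were 6, 3 and 0 for diet in females, diet in males and the interaction. The shares of all tested genes were 12.6%, 13.4% and 0.683%. For sex on the normal and the high fat diet the counts were 15 and 10, beside 18.2% and 23.3%. Diet in males gave 1 of the other pathway genes with the block. The calls lost with the block were Acot2 with diet in males (edgeR adjusted p = 0.0573), Eci1 with sex on the normal diet (0.0529) and, among the other pathway genes, Phyh with diet in females (0.0505) and Acad10 with diet in males (0.0625). The members lowest in mean TPM, Acot2 and Ppargc1a, were above 2 CPM in every library. Acot3, with a higher mean, fell as low as 2.13 TPM in males on the high fat diet. The 4 libraries per group limit the size of change that can be called.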
